A study of Drosophila melanogaster with 8 samples.

Results

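The transcriptome described here is that of Drosophila melanogaster heads sampled at night, taken from the unpulsed arm of an experiment on light at night. Its members were chosen by their titles and control label, which gave 4 of the 8 arrays in the series, unpulsed replicates 1 to 4. All flies were of the wild-type laboratory strain Canton-S, kept at 25 °C on sugar medium, 3 to 5 days old, and had spent 4 days in cycles of 12 h light and 12 h darkness. Unpulsed flies were sampled at zeitgeber time (ZT, hours after lights on) 16.5, and their titles and treatment label name them as unpulsed controls. The protocol text attached to them repeats that of the pulsed flies, light pulse included, so their group rests on the title and treatment label. The pulsed flies of the other 4 arrays received 30 min of saturating light from ZT 15, 3 h into the night, and were frozen 1 h later. Pulsed arrays are used below only for the spread among themselves, and no level in pulsed heads was set against a level in unpulsed heads. The sex of the flies, the number of heads per sample and whether replicates came from separate groups of flies are not given in the sources used here, so the spread between arrays may be in part technical.

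An adult fly head holds the compound eyes, the brain with its neurons and glia, the antennae and mouthparts, muscle, circulating blood cells and a sheet of fat body under the cuticle. Photoreceptors turn light into a current through a G protein cascade that ends in the opening of TRP family channels, and arrestins then silence the activated rhodopsin. Glia clear transmitter and seal the brain from the blood, while fat body, the counterpart of liver and adipose tissue, stores lipid and secretes carrier, storage, yolk and immune proteins. In a whole-head sample, fewer cells of a type and less RNA per cell cannot be told apart.

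Each array gave a log2 signal for 18769 probe sets besides 183 controls. A probe set is a group of short probes for a transcript, and its signal also depends on those probes, so ranks below are ranks of signal and signals of different genes are not set against each other as amounts of RNA. Array medians lay between 2.95 and 3.02, and 9417 probe sets (50.2%) had a mean under 3. Pearson correlations between pairs of arrays, across probe sets that share an array's background and are not independent, ran from 0.995 for replicates 1 and 3 to 0.998 for replicates 1 and 2. Replicate 3 differed most. It differed by over 1 log2 unit from the mean of the other arrays at 114 probe sets, against 47 for replicate 1, 24 for replicate 2 and 41 for replicate 4. The poly(A) control RNAs that are added to a sample before labelling were also higher on that array. dap stood at 9.52 on replicate 3 and at 7.48 to 7.65 on the others, lys at 4.60 against 3.09 to 3.44, phe at 6.89 against 4.88 to 5.07, and thr at 6.88 against 4.59 to 4.76. The bioB control, added at hybridisation, was at 9.84 on replicate 3 and 8.90 to 9.33 on the others, and 18S ribosomal RNA at 7.44 against 6.08 to 6.64. Gaps between 3′ and 5′ probe sets, which widen as RNA is shortened, differed less, at 1.06 on replicate 3 and 0.977 to 1.09 on the others for GAPDH. For actin the gap was 1.58 on replicate 3 and 1.21 to 1.39 on the others. The part of the controls in the differences of replicate 3 given below was not tested.

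The brightest transcripts with a gene name in the unpulsed head belonged to secreted peptides and carrier proteins, the translation machinery and the eye. Nplp2, a neuropeptide-like precursor, ranked highest of all by mean with 15.40, 15.51, 15.51 and 15.47 on replicates 1 to 4. Next among probe sets with 1 gene name came the ribosomal protein gene RpL41 at 15.25 ± 0.06, EbpIII, first described as an ejaculatory bulb protein, at 15.15 ± 0.01, and RpL15 at 15.05 ± 0.04 (mean ± SD, n = 4 here and below). Obp99b, of the odorant-binding protein family, followed at 15.04 ± 0.13. Also among the 25 genes with the highest mean were Arr2, the major photoreceptor arrestin (14.86 ± 0.10), Tsf1, the iron carrier transferrin (14.76 ± 0.22), and Lsp2, a storage protein of the blood made by fat body (14.62 ± 0.51). sesB, the mitochondrial ADP/ATP carrier, stood at 14.52 ± 0.02 and MtnA, a metal-binding metallothionein, at 14.45 ± 0.11. Several bright genes are known by number alone, among them CG2233 (14.87 ± 0.06), CG8329 (14.86 ± 0.06) and CG8343 (14.82 ± 0.09). The non-coding transcript lncRNA:mimi reached 14.83 ± 0.09.

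Of the 100 probe sets with the highest mean, 64 carried 1 gene name, and 20 of these encoded cytosolic ribosomal proteins, 5 odorant-binding proteins and 3 Bomanins, short secreted peptides of the Toll immune pathway. These families held 41, 47 and 8 of the 11981 named genes. The other 36 of the 100 are not named here and could not be assigned to a family. Means of the 100 probe sets ran from 13.87 to 15.47, and their median SD was 0.0606. SD exceeded 0.5 at 1 of them, Lsp2, where 1.27% of all probe sets passed that value. Odorant-binding protein genes covered a wide range of signal. Of 47 genes of the family, 12 had a mean over 10, among them Obp99c (14.48 ± 0.07), Obp44a (14.39 ± 0.03), Obp19d (14.32 ± 0.18) and Obp56d (13.93 ± 0.01), while 23 had a mean under 3. All 8 Bomanin genes had a mean over 10, from BomT3 at 11.13 ± 0.40 to BomS6 at 14.36 ± 0.06. Over all 18769 probe sets, 1099 had a mean over 10 and 9417 (50.2%) a mean under 3.

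**Figure D1:**
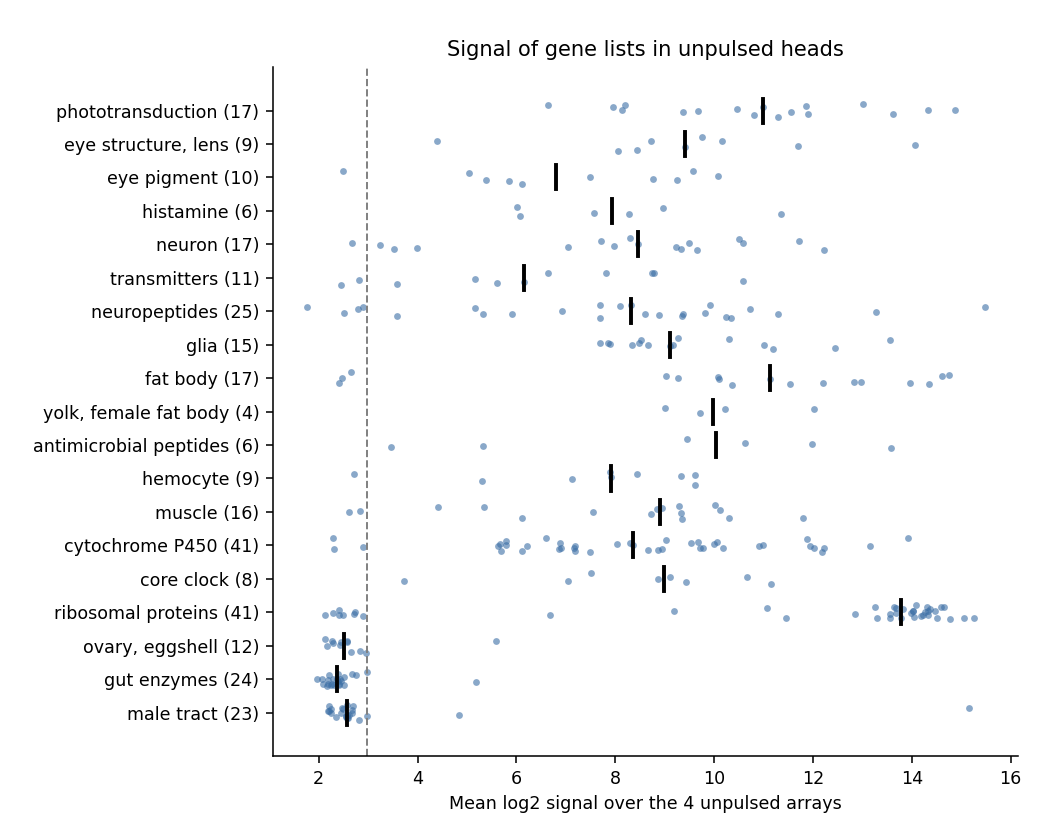
Mean log2 signal of each measured gene (points) over the 4 unpulsed arrays, by gene list, with the number of genes in parentheses, the list median as a black bar and the median of all 18769 probe sets as a dashed line. Each gene is shown by its probe set of highest mean, while the dashed line covers every probe set. Eye, glia and fat body lists lie well to the right of the dashed line, while ovary, gut and male tract lists lie to its left except for a few genes.

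Most genes of the light response gave high signals. Of 20 listed phototransduction genes, 17 were measured, 11 of them with a mean over 10, and their median was 11.00, against 2.99 over all probe sets. Of all 18769 probe sets, 1099 had a mean over 10. Here and below, a listed gene is represented by its brightest probe set, which can raise a list median beside that of all probe sets. The arrestins Arr2 and Arr1 stood at 14.86 ± 0.10 and 14.33 ± 0.11, and Gbeta76C, the eye G protein beta subunit, at 13.62 ± 0.12. Both light-activated channels were bright, trp with 12.98, 12.90, 13.25 and 12.90 on replicates 1 to 4 and trpl with 10.97, 10.86, 11.28 and 10.88. Galphaq, which couples rhodopsin to phospholipase C, averaged 11.85 ± 0.19, inaC, the eye protein kinase C, 11.56 ± 0.13, and inaD, the scaffold that holds the cascade together, 10.81 ± 0.11. The lowest member was inaE, a diacylglycerol lipase, at 6.65 ± 0.27. Among 7 opsins only Rh7, a brain and eye opsin, had a named probe set, at 4.87 ± 0.33. ninaE, Rh2 and Rh3 to Rh6 are not named here.

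Structural and pigment genes of the eye covered a wider range. Structure, chromophore and lens genes had a median of 9.41 over 9 measured of 12. retinin, a protein of the corneal lens, stood at 14.07 ± 0.07 and chp, the photoreceptor adhesion protein chaoptin, at 11.70 ± 0.14. Genes for carotenoid uptake and cleavage were at 10.16 ± 0.12 for santa-maria, 9.76 ± 0.08 for ninaB and 8.06 ± 0.23 for ninaD. The lowest of this list was prom, a rhabdomere membrane protein, at 4.40 ± 0.34. Eye pigment genes had a median of 6.80 over 10 measured of 13. Pteridine enzymes led them, with Pu, the GTP cyclohydrolase, at 10.08 ± 0.07, pr at 9.57 ± 0.16 and se at 9.24 ± 0.05. cn, the kynurenine hydroxylase of the brown pigment path, was at 2.49 ± 0.02, below the median of all probe sets. Histamine is the photoreceptor transmitter, and 6 of 8 genes for its making, recycling and sensing had a median of 7.93. t, the hydrolase that frees histamine from its beta-alanine conjugate, stood at 11.36 ± 0.08, Hdc, which makes histamine, at 8.97 ± 0.18, and ort, its receptor on lamina neurons, at 6.01 ± 0.07.

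Neuronal genes were spread over nearly the whole range of signal. The list of 19 held 17 measured genes with a median of 8.46. The highest signals were those of Snap25, a SNARE protein, at 12.23 ± 0.08, cpx, complexin, at 11.72 ± 0.09, Appl, the amyloid precursor homologue, at 10.59 ± 0.42, and unc-13, a vesicle priming factor, at 10.50 ± 0.43. The neuronal RNA-binding proteins fne and elav averaged 9.32 ± 0.63 and 9.22 ± 0.31. Several channel genes gave low signals, with para, the voltage-gated sodium channel, at 3.53 ± 0.68, Shab at 3.25 ± 0.29 and eag at 2.68 ± 0.02. Transmitter genes had a median of 6.16 over 11 measured of 12. Gad1, which makes GABA, stood at 10.59 ± 0.31, and the acetylcholine genes ChAT and VAChT at 8.79 ± 0.18 and 8.74 ± 0.39. Vmat, the vesicular monoamine transporter, averaged 7.82 ± 0.03, but its other probe sets gave 7.36 ± 0.35, 6.47 ± 0.41 and 2.93 ± 0.06. Lower signals were those of ple, tyrosine hydroxylase, at 3.59 ± 0.23 and Tdc2, tyrosine decarboxylase, at 2.45 ± 0.04.

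Neuropeptide genes, many of which are made by few cells, had a median of 8.32 over 25 measured of 30. Besides Nplp2, the brightest were Nplp3 at 13.28 ± 0.09, Ms, myosuppressin, at 11.29 ± 0.14 and AstC, allatostatin C, at 10.73 ± 0.12. Ilp2, an insulin-like peptide of the brain's insulin cells, stood at 10.23 ± 0.04, and Pdf, the peptide of the ventral clock neurons, at 9.81 ± 0.10. Akh, the adipokinetic hormone made in the corpora cardiaca outside the head, was lowest at 1.76 ± 0.01. The spread of this list was small, with a median SD of 0.13 against 0.42 for the neuron list.

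All 15 measured glial genes of 16 listed lay well above the median of the arrays, from Gli, a junction protein, at 7.69 ± 0.06 to Gs2, glutamine synthetase, at 13.55 ± 0.19. Their median was 9.11. Tret1-1, a trehalose transporter, stood at 12.44 ± 0.28, nrv2, a sodium pump beta subunit, at 11.20 ± 0.22, and Eaat2, an excitatory amino acid transporter, at 11.01 ± 0.08. repo, the transcription factor that defines glia, averaged 9.17 ± 0.07, alrm, an astrocyte marker, 10.31 ± 0.11, and moody, a receptor of the blood-brain barrier, 9.11 ± 0.09.

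Fat body genes had a median of 11.12 over 17 measured of 18. Tsf1 and Lsp2 were followed by apolpp, the precursor of the lipid carrier lipophorin, at 14.35 ± 0.11, Pepck1, which feeds sugar synthesis, at 13.96 ± 0.45, and FASN1, fatty acid synthase, at 12.97 ± 0.27. Larval fat body genes were the exception: Fbp1 and Fbp2 stood at 2.47 ± 0.02 and 2.66 ± 0.02. upd2, a cytokine of the fed state, was at 2.41 ± 0.02.

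Other tissues of the head were present and tissues of the trunk were mostly at the floor. Muscle genes had a median of 8.90 over 16 measured of 20, led by Mlp60A at 11.80 ± 0.05, and Act88F, the actin of flight muscle, was at 4.42 ± 0.03. Blood cell genes had a median of 7.91 over 9, with both prophenol oxidases at 9.61, Hml at 7.89 ± 0.31 and He at 2.71 ± 0.16. Ovary and eggshell genes had a median of 2.51 over 12 measured of 14, and 11 of them had a mean under 3, against 50.2% of all probe sets. Among 24 measured gut enzyme genes of 34, 23 had a mean under 3, the exception being Mal-A1, a maltase, at 5.18 ± 0.44. Of 23 measured male accessory gland and testis genes of 26, 21 were under 3, including SP, the sex peptide, at 2.20 ± 0.01. EbpIII (15.15) and Acp95EF (4.84 ± 0.39) were the 2 above it.

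All 8 core clock genes were measured, at this 1 time of night only. tim and vri gave the highest signals, with tim at 11.40, 11.12, 11.10 and 10.95 and vri at 10.77, 10.58, 10.81 and 10.51 on replicates 1 to 4. per, the partner of tim in repression, averaged 8.87 ± 0.19, and cwo, a second repressor of the loop, 9.42 ± 0.21 with its low value of 9.10 on replicate 4. The light receptor cry averaged 7.52 ± 0.11 and cyc 7.05 ± 0.17. Clk, the activator, was dimmest at 3.73 ± 0.10. The median of the list was 8.99 and its median SD 0.178.

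Undisturbed heads differed little from array to array at most genes. The median SD was 0.0587 over all probe sets and 0.145 over the 7403 with a mean of 5 or more, where signal is clear of the floor. SD exceeded 1 at 24 probe sets, 0.128% of all and 0.257% (19) of the brighter ones, and 2 at 3, those of Yp1, Yp2 and Yp3. It exceeded 0.5 at 239, 1.27% of all and 2.05% (152) of the brighter ones, of which 178 had 1 gene name, for 166 genes. Ranked by mean and divided into 10 equal groups, the median SD was at most 0.0258 in the 4 dimmest groups, 0.182 in the seventh and 0.117 in the brightest, so the spread was largest at middle signals. A single array stood apart, by a gap that took up most of the range, in 1177 probe sets (6.27%). At the threshold, jeb, the ligand of the receptor Alk, lay just inside with an SD of 1.02, and Shaw, a potassium channel, just outside with 0.98. Without replicate 3, 12 probe sets were over 1, and without replicate 2, 373 were over 0.5.

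**Figure D2:**
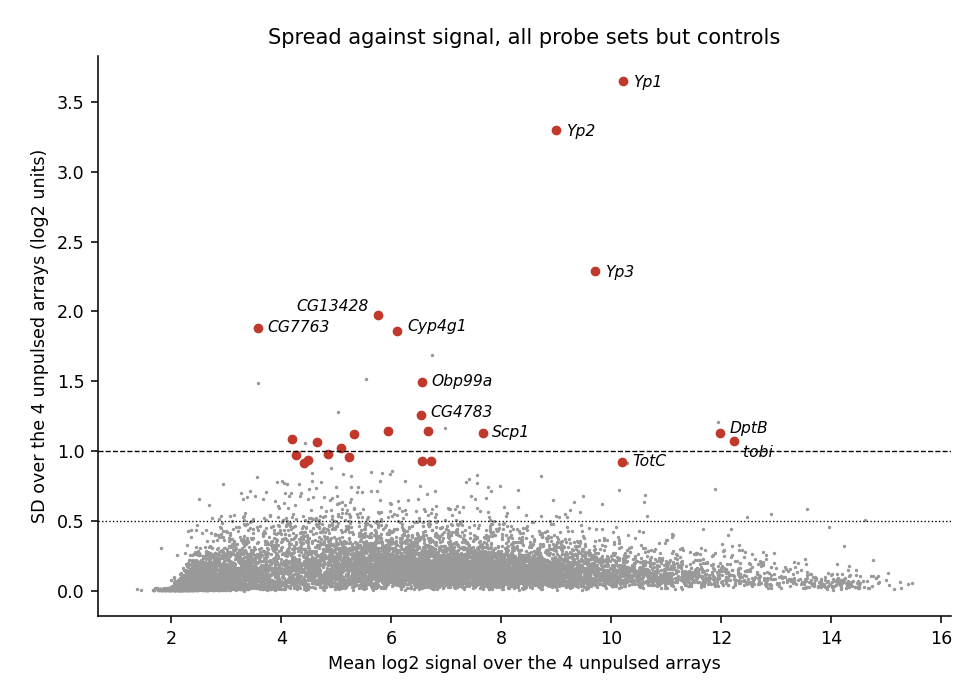
SD over the 4 unpulsed arrays (vertical axis, log2 units) against mean log2 signal (horizontal axis) for the 18769 probe sets, with the 25 genes of highest SD in red and some of them named. Lines mark an SD of 1 (dashed, 24 probe sets above) and of 0.5 (dotted, 239 above), and Yp1, Yp2 and Yp3 stand far above the rest.

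Each of the 239 probe sets was split at the largest gap between its 4 values. Replicate 3 alone was low in 72 (30.1%), replicates 1 and 2 together were high in 54 (22.6%), replicate 3 alone was high in 31 and replicate 1 alone was high in 29 (12.1%). Replicate 4 alone was low in 21 (8.79%) and replicate 2 alone high in 10 (4.18%). The same splits over all probe sets of mean 5 or more held replicate 3 alone low in 15.6%, replicates 1 and 2 high in 10.3%, replicate 3 alone high in 16.9%, replicate 1 alone high in 11.2%, replicate 4 alone low in 8.92% and replicate 2 alone high in 3.81%. Of the splits named, replicate 3 alone low and replicates 1 and 2 high thus had a larger share among the 239. The other shares named lay near or under those of all brighter probe sets. Only 152 of the 239 were that bright, however. Over all probe sets, replicate 1 alone was high in 7.17% and replicate 4 alone low in 4.13%, less than among the 239. Replicates 2 and 3 together were high in 9 of the 239 (3.77%), against 2.38% of brighter probe sets.

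Yolk protein genes varied most. Yp1, Yp2 and Yp3 encode the yolk proteins that fat body and ovary of females make. Yp1 was at 4.82 on replicate 1, and at 12.68, 12.05 and 11.34 on replicates 2, 3 and 4. For Yp2 the values were 4.13, 11.35, 10.54 and 9.98, and for Yp3 6.43, 11.73, 10.59 and 10.10. Replicate 1 was thus far below the other arrays at all 3 genes, and the other arrays kept the order 2, 3, 4. SDs were 3.65, 3.30 and 2.29, and without replicate 1 they were 0.672, 0.688 and 0.837. Obp99a, an odorant-binding protein gene, had the same low array, with 4.38 on replicate 1 and 7.39, 7.64 and 6.80 on the others (SD 1.49, and 0.431 without replicate 1).

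Other genes with a sex bias did not set replicate 1 so far apart. fit, a female-biased fat body peptide gene, was at 11.75 on replicate 1 and at 12.46, 11.76 and 12.13 on the others. Replicate 1 was lowest and replicate 2 highest in 4 of 4 yolk and female-biased genes. Over all probe sets replicate 1 was lowest in 54.3% and replicate 2 highest in 11.0%. Over probe sets with a mean of 5 or more, as all 4 genes had, the shares were 19.0% and 16.1%. Male-biased genes were not high on replicate 1: Obp99b stood at 15.09 there and at 14.85 to 15.13 on the others, Cyp4d21 at 11.79 against 11.82 to 12.18, and sxe2 at 11.45 against 11.53 to 11.80. msl-2, whose protein acts in male dosage compensation, was at 6.55 on replicate 1 and 6.63 to 6.80 on the others. The 9 measured eggshell genes, whose names begin with Cp and Vm, were at 3.02 or lower on all arrays. Which other differences of the samples move with the yolk genes was not tested.

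**Figure D3:**
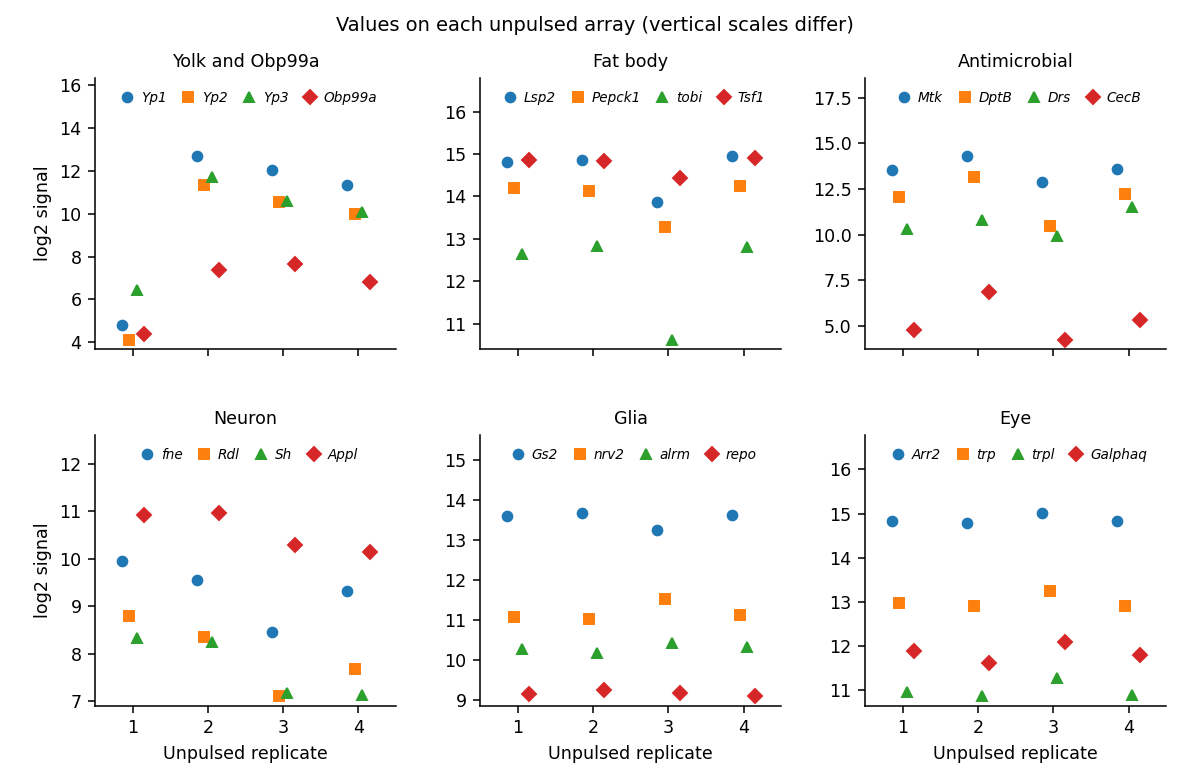
log2 signal of 4 genes per panel on unpulsed replicates 1 to 4, one point per array, with a vertical scale of its own in each panel and points of a replicate set slightly apart for legibility. The genes shown are picked examples, and tobi is not in the fat body list. Of these, yolk genes and Obp99a are low on replicate 1, and fat body and antimicrobial genes low on replicate 3. The neuron genes shown are higher on replicates 1 and 2. Of the glia genes shown, Gs2 is lower and nrv2 higher on replicate 3, and of the eye genes Arr2, trp and trpl are highest there. Genes not shown, such as regucalcin and Snap25, had other orders.

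Fat body genes were lower on replicate 3. Lsp2 stood at 14.80, 14.85, 13.86 and 14.95 on replicates 1 to 4, and Pepck1 at 14.20, 14.13, 13.29 and 14.24. tobi, an alpha-glucosidase gene named as a target of brain insulin and not in the fat body list, was at 12.63, 12.84, 10.63 and 12.82. In each case the other 3 arrays lay close together. Replicate 3 was the lowest array for 11 of 17 measured fat body genes, where it was lowest in 16.4% of all probe sets and 33.1% of those with a mean of 5 or more, and all 11 were among the 14 members of that brightness. The list's median deviation from each gene's mean was -0.23 on replicate 3, against 0.10, 0.09 and 0.06 on replicates 1, 2 and 4. Its median SD was 0.244, and 0.065 without replicate 3. Tsf1 was at 14.43 on replicate 3 and 14.84 to 14.92 on the others, and a second probe set of the gene gave 11.72 against 12.58 to 12.98.

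Some fat body genes had another order. regucalcin, a calcium-binding protein gene, was highest on replicate 3, at 11.98, 12.01, 12.53 and 12.28. Gnmt, a methyltransferase gene, stood at 12.73, 12.87, 12.84 and 12.85, and Lsd-1, a lipid droplet protein gene, at 11.39, 11.52, 11.53 and 11.73. The lipid droplet gene Lsd-2 and the lipase gene bmm were in the larger group, at 10.70 and 9.74 on replicate 3 and 11.22 to 11.32 and 10.16 to 10.29 on the others.

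Further genes of highest SD had replicate 3 as the low array. Cyp4g1, the oenocyte cytochrome P450 that makes cuticular hydrocarbons, was at 7.70, 6.36, 3.44 and 6.93 (SD 1.86). CG13428 was at 6.35, 6.57, 2.86 and 7.25 (SD 1.97), and CG4783 was at 6.95, 7.42, 4.68 and 7.10. Scp1, a calcium-binding protein of muscle, was at 8.04, 7.81, 6.07 and 8.72. On replicate 3 the value of CG13428 lay below the median of that array, 3.02. The opposite case was CG7763, at 6.39 on replicate 3 and 2.60, 2.62 and 2.66 on replicates 1, 2 and 4 (SD 1.88, and 0.032 without replicate 3). TotC, a stress-induced Turandot peptide gene, was also high there, at 11.54 against 9.51 to 10.03. Cuticle protein genes Cpr72Ec (11.51 against 10.07 to 10.50) and Cpr49Ag (6.64 against 4.95 to 5.52) were high on the same array. Cpr76Bc was low there, at 6.25 against 7.05 to 7.18. Among 14 cuticle protein genes with a mean of 5 or more, replicate 3 was highest in 5 and lowest in 5. The shares over all probe sets of that brightness were 31.2% and 33.1%.

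Antimicrobial peptide genes varied as a group, with replicate 2 toward the top and replicate 3 at the bottom. These genes are switched on in fat body by the Toll and Imd pathways, and 6 of 14 were measured. Mtk, metchnikowin, stood at 13.55, 14.29, 12.86 and 13.58 on replicates 1 to 4. DptB, a diptericin, was at 12.08, 13.16, 10.45 and 12.20, and CecB, a cecropin, at 4.81, 6.87, 4.25 and 5.35. Replicate 3 was lowest in 6 of 6 and replicate 2 highest in 4 of 6, the exceptions being Drs, drosomycin, and Def, defensin, which were highest on replicate 4 at 11.49 and 9.88. Over all probe sets replicate 3 was lowest in 16.4% and replicate 2 highest in 11.0%, and over those with a mean of 5 or more in 33.1% and 16.1%. The median deviation was 0.72 on replicate 2 and -0.71 on replicate 3, and 5 of 6 had an SD over 0.5, against 1.27% of all probe sets. edin, an infection-induced peptide gene, kept the same top and bottom array, at 7.02, 8.07, 5.40 and 6.21. The Bomanins had another order. Their median SD was 0.135, and replicate 3 was lowest in 0 of 8 and highest in 5 of 8, against 33.1% and 31.2% of probe sets with a mean of 5 or more.

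Neuronal genes followed another split, with replicates 1 and 2 above replicates 3 and 4. Rdl, a GABA receptor subunit, was at 8.80, 8.35, 7.10 and 7.67, and Sh, the Shaker potassium channel, at 8.33, 8.25, 7.16 and 7.12. cac, a presynaptic calcium channel, gave 8.86, 8.72, 8.08 and 7.57. Both replicates 1 and 2 exceeded both replicates 3 and 4 in 13 of 17 neuron genes, where 13.5% of all probe sets and 28.2% of those with a mean of 5 or more had that order, and in 11 of the 13 members of that brightness. Median deviations were 0.34 and 0.27 on replicates 1 and 2, and -0.28 and -0.24 on replicates 3 and 4. The order was not particular to this list. Among members with a mean of 5 or more, 8 of 13 muscle, 10 of 20 neuropeptide and 5 of 8 transmitter genes had it. So did 3 of 15 glia and 3 of 17 phototransduction genes. fne was at 9.96, 9.55, 8.46 and 9.31, para at 4.29, 3.91, 2.89 and 3.03, and Appl at 10.92, 10.97, 10.30 and 10.15.

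Genes of transmitter release differed in this among themselves. unc-13 had the same order, at 10.93, 10.81, 10.10 and 10.17, and cpx by less, at 11.79, 11.79, 11.71 and 11.59. Snap25 was at 12.18, 12.30, 12.30 and 12.14, Csp, a synaptic chaperone, at 9.71, 9.70, 9.65 and 9.56, and nSyb, synaptobrevin, at 9.70, 9.43, 9.43 and 9.39. SDs in the list ran from 0.0165 for eag to 0.749 for Rdl. Probe sets of 1 gene also differed. Of 7 for Sh, the 4 with the highest means had replicates 1 and 2 above replicates 3 and 4, with SDs of 0.663, 0.591, 0.929 and 0.288, while the dimmest had an SD of 0.063. For nAChRbeta1, a nicotinic receptor subunit, 1 probe set gave 10.13, 9.88, 9.37 and 9.45 and the other 6.04, 5.97, 4.81 and 4.06. tutl, a cell-surface protein of the immunoglobulin family, showed the same order at 7.11, 6.68, 5.27 and 4.70, and at 3.76, 3.77, 3.05 and 2.98 on a second probe set. The 2 probe sets of Shaw had replicate 3 as the low array instead, at 3.39 against 5.24 to 5.43 and at 4.54 against 5.24 to 5.73.

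**Figure D4:**
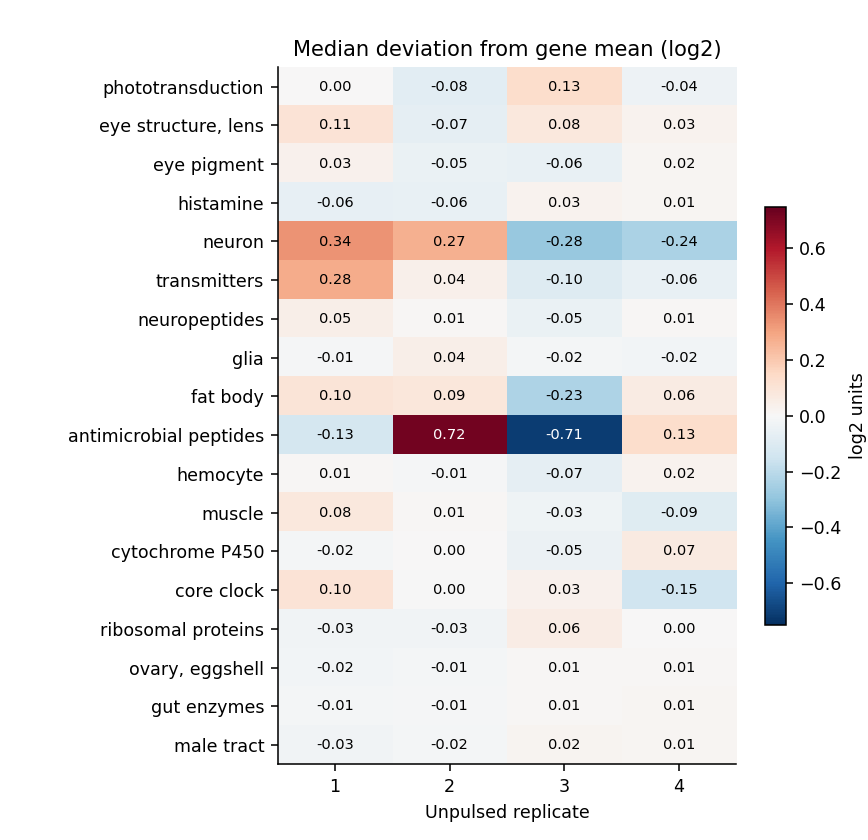
Median over the genes of each list of the deviation of a replicate from the gene's own mean over the 4 unpulsed arrays, in log2 units, with colour following the printed value. Neuron genes run from 0.34 to -0.28 and antimicrobial peptides from 0.72 to -0.71, fat body genes are at -0.23 on replicate 3, and glia genes stay within 0.04 of 0; the yolk list is left out because its deviations exceed the colour scale.

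Glia and eye genes varied less than the neuron, fat body and antimicrobial lists, and about as much as brighter probe sets in general. No glial gene of the 15 measured had an SD over 0.5. Of all probe sets 1.27% passed that value, and of those with a mean of 5 or more 2.05%. The glial median SD was 0.148, against 0.145 over probe sets with a mean of 5 or more. Median deviations of glial genes stayed between -0.02 and 0.04 on all 4 arrays. Gs2 was lower on replicate 3 (13.26 against 13.62 to 13.69) and nrv2 higher (11.53 against 11.05 to 11.13), so single genes lay on both sides there. Phototransduction genes had a median SD of 0.133 and lay on the other side from fat body genes, with a median deviation of 0.13 on replicate 3. That array was highest in 11 of 17, where it was highest in 33.6% of all probe sets and 31.2% of those with a mean of 5 or more. ry, xanthine dehydrogenase, had the widest spread among pigment genes, at 6.53, 6.47, 5.45 and 6.01.

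Replicate 3 was also the highest array for most ribosomal protein genes, by small amounts. It was highest in 28 of 41 cytosolic ribosomal protein genes and in 43 of 69 mitochondrial ones, with median deviations of 0.06 and 0.13. Over all probe sets it was highest in 33.6%, and over those with a mean of 5 or more in 31.2%. mRpS16, of the mitochondrial ribosome, was at 8.52, 8.70, 9.23 and 8.60. The cytosolic family had a median SD of 0.058 and a median mean of 13.79, although 8 members, such as RpS19b at 2.12 ± 0.01 and RpL10Aa at 2.29 ± 0.05, were under 3. Respiratory chain and ATP synthase genes had a median of 11.01 and a median SD of 0.067, and replicate 3 was highest in 23 of 69, a share near that of all probe sets.

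Cytochrome P450 genes, enzymes of detoxification and hormone and lipid metabolism, had a median of 8.35 over 41 measured of 42. Replicate 3 was lowest in 19 of them, where it was lowest in 16.4% of all probe sets and 33.1% of those with a mean of 5 or more. Replicate 4 was highest in 18, where 37.2% of all probe sets and 18.5% of the brighter ones were highest on it. Among the 38 members with a mean of 5 or more, these counts were 19 and 17. The brightest, Cyp313a1, was nearly level at 13.92 ± 0.06. Cyp6d5 was at 12.91 on replicate 3 and 13.22 to 13.28 on the others, and Cyp4e3 at 8.57, 8.07, 7.39 and 8.14. Cyp4d1 was highest on replicate 3, at 5.33, 5.48, 6.75 and 5.61.

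At the steady end, the lowest SDs among genes with a mean of 8 or more belonged to ClC-b, a chloride channel (8.31, 8.33, 8.32 and 8.32), RpS20 (14.04, 14.03, 14.05 and 14.04) and Glys, glycogen synthase (9.48, 9.46, 9.47 and 9.47). EbpIII was among these 10 genes with an SD of 0.0097. SCAP, which escorts a transcription factor, and TfIIA-L, a general transcription factor subunit, had SDs of 0.0088 and 0.0090. All 10 were chosen for a low SD on these arrays. Among the pulsed arrays the SDs of ClC-b, RpS20 and Glys were larger, at 0.0959, 0.0492 and 0.0694. Those of mRpL45 and CG11975, also among the 10, stayed low at 0.0147 and 0.0150.

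The arrays of pulsed heads, which played no part in choosing the variable genes, show how far the same genes vary in another set of 4. Of the 239 probe sets with an SD over 0.5 in unpulsed heads, 33 (13.8%) also passed it among the pulsed arrays, against 338 (1.80%) of all 18769. Pulsed replicate 2 stands apart from the other pulsed arrays in many genes, and without it the counts were 29 (12.1%) and 83 (0.442%). The median SD of the 239 was 0.609 among unpulsed arrays, which chose them, and 0.219 among pulsed arrays. Most of the probe sets that varied among unpulsed heads therefore did not exceed 0.5 among pulsed heads.

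Yolk genes and a few others were variable in both sets. Yp1, Yp2 and Yp3 had SDs of 3.65, 3.30 and 2.29 in unpulsed heads and 3.96, 3.86 and 2.31 in pulsed heads, and 3.62, 3.47 and 1.68 in pulsed heads without replicate 2. Scp1 had 1.13 in unpulsed and 1.22 in pulsed heads. Cyp4g1 had 1.86 in unpulsed and 2.63 in pulsed heads (0.793 without pulsed replicate 2), and Obp99a 1.49 in unpulsed and 2.03 in pulsed heads (0.758 without it). tobi was the opposite, with 1.07 in unpulsed and 0.0449 in pulsed heads. CG7763 had 1.88 in unpulsed and 0.399 in pulsed heads. The median SD of fat body genes was 0.244 in unpulsed and 0.0903 in pulsed heads, and that of neuron genes 0.421 in unpulsed and 0.138 in pulsed heads. For glia it was 0.148 in unpulsed and 0.112 in pulsed heads, and for antimicrobial peptides 0.636 in unpulsed and 0.538 in pulsed heads.

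**Figure D5:**
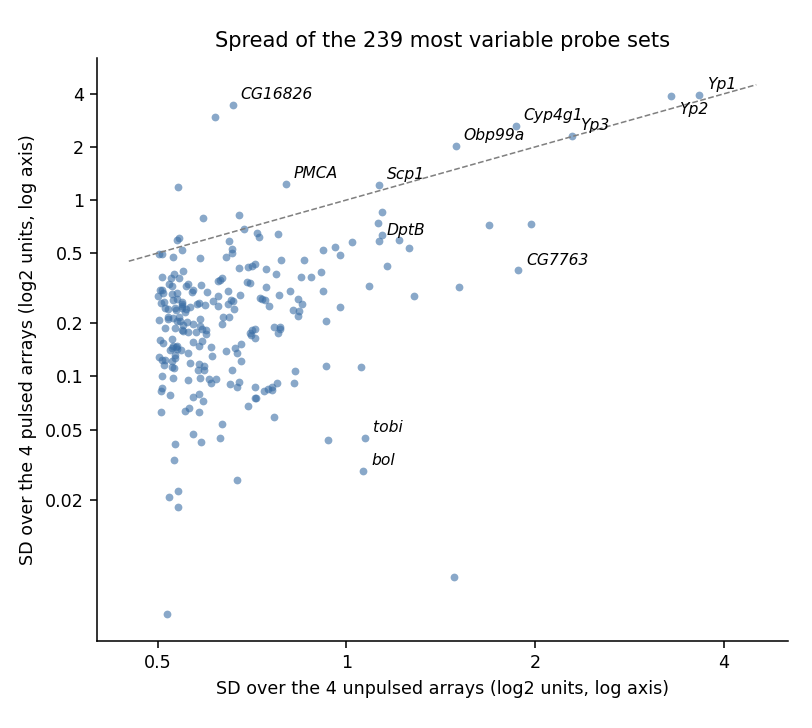
SD over the 4 pulsed arrays against SD over the 4 unpulsed arrays, both in log2 units on log axes, for the 239 probe sets with an unpulsed SD over 0.5, with the line of equal SD dashed. The probe sets were chosen by the unpulsed SD. Most points lie below the line, and 33 lie above 0.5 on the vertical axis, with Yp1, Yp2 and Yp3 at the upper right.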

How the data were processed

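Total RNA of fly heads was extracted with Trizol, labelled with biotin and hybridised to Affymetrix arrays, per the labels' protocols. The authors deposited a table of log2 values. That the scale is log2 was inferred from their range, 1.36 to 15.51 on the unpulsed arrays. How probes were summarised and arrays normalized was not given in the sources used here. Deposited values were used as they are, without a filter on low values. The number of arrays limits the precision.

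Of 18952 probe sets, 183 controls were set aside and 18769 ranked. Names came from the platform annotation: 13646 ranked probe sets had 1 symbol, for 11981 genes, 402 had several and 4721 are not named here. Symbols of 13543 were found by gene number in RefSeq names (NCBI, Release 6 plus ISO1 MT) and brought up to date. Groups came from the labels. For each probe set the mean and SD (n - 1) over the 4 unpulsed arrays were taken with Python 3.11.15, numpy 2.4.6 and pandas 2.3.3. With 1 group there was nothing to test, so no p-value was computed. A single array was taken to stand apart when its gap to the nearest other value was over 0.829 of the range, Dixon's value for 4 samples. These steps were tested on simulated data.

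Genes were named by rule, in all 190: the 25 with the highest mean, the 25 with the highest SD (the same 25 with and without probe sets under the 40th percentile of mean), the 10 with the lowest SD at a mean of 8 or more, and in each list up to 4 of highest mean, 1 of lowest mean and 3 of highest SD. List members outside this rule, genes of families found by their symbol, and genes named for moving against their list were chosen after their values were seen. In a list, a gene is represented by its probe set of highest mean, and 302 of 377 listed genes were measured. Members and lists were chosen with earlier results of these data known. Alternatives were quantile normalization, arrays centred on their medians, a pseudocount of 16 on the linear scale, other measures of spread and thresholds, the mean of all probe sets of a gene, and each array left out in turn.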

Additional observations from a re-analysis of the deposited data

Results flagged for a closer look

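An array was held to stand apart for a gene when its gap to the nearest of the other 3 exceeded Dixon's critical share of the range, which chance gives in about 1 in 20 groups of 4. Of the 190 named genes 22 (11.6%) met this, against 6.27% of all probe sets and 6.63% of those with a mean of 5 or more, and in 16 the array was replicate 3. Some of the 190 were chosen for a high SD on these same arrays, which 1 array apart raises. The share among the 190 is therefore no test against that of all probe sets. No explanation was tested. Replicate 3 was apart and low for Obp99b (14.851), Tsf1 (14.429), Lsp2 (13.861), tobi (10.628), Shaw (3.389), CG30289 (3.081), Gs2 (13.264), Pepck1 (13.286), Obp19d (14.055), Hsp68 (5.272), Cyp6d5 (12.911) and Pgi (11.774). It was apart and high for CG7763 (6.387), Pu (10.183), nrv2 (11.527) and Acp95EF (5.414), and for 3 of 9 control measures, the poly(A) controls dap (9.517), phe (6.895) and thr (6.875). The list medians of cytochrome P450 genes (7.989) and of steady reference genes (11.533) were also apart and low there. Replicate 1 was apart for Yp1 (4.815) and Obp56d (13.952), replicate 2 for prom (3.884) and Cp38 (2.490), and replicate 4 for Tdc2 (2.389) and cwo (9.104). Several of these gaps are small in absolute size: Obp56d was at 13.92 to 13.93 and Pu at 10.03 to 10.05 on the other arrays.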

How the results depend on the processing

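No result reversed, since none compares groups, and no paired value exists. No paired analysis was possible because the values describe 1 group and come from no test. The count of probe sets with SD over 1 (24) was 239 at a threshold of 0.5, 3 at 2, 13 with the pseudocount, and 12 to 30 with an array left out, lowest without replicate 3. The count over 0.5 (239), added after seeing the data with the limit of mean 5, was 102 with the pseudocount, 152 at a mean of 5 or more and 164 to 373 with an array left out. Of the 25 genes of highest SD, 13 were shared by the median absolute deviation and 11 to 22 with an array left out, fewest without replicate 3. Probe sets with 1 array apart (1177) numbered 2094 after quantile normalization and 491 at a mean of 5 or more. Those with replicate 3 alone low (72) numbered 33 with the pseudocount. With all probe sets of a gene averaged, list medians were 9.365 for phototransduction, 8.724 for eye structure, 6.510 for eye pigment, 7.981 for neuron, 10.162 for fat body, 2.411 for ovary, 8.633 for muscle and 8.196 for clock genes, and the fat body median SD was 0.147. The pseudocount gave list medians of 7.016 for eye pigment, 8.021 for histamine, 4.455 for male tract, 4.440 for ovary, 4.406 for gut, 6.0 for chemosensory and 6.509 for Turandot and heat shock genes. Median SDs of male tract, ovary and gut genes were 0.009, 0.015 and 0.009 after quantile normalization and 0.008, 0.007 and 0.004 with the pseudocount. With an array left out, median SDs ran from 0.082 to 0.147 for phototransduction, 0.077 to 0.168 for eye structure, 0.086 to 0.148 for eye pigment, 0.065 to 0.280 for fat body, 0.680 to 3.372 for yolk, 0.104 to 0.185 for male-biased, 0.036 to 0.059 for chemosensory, 0.134 to 0.267 for Turandot and heat shock, 0.084 to 0.176 for cytochrome P450 and 0.033 to 0.086 for steady reference genes. The cause of each was not tested beyond which array was left out. The other list medians, the order of neuron genes (13, 14 or 16 of 17) and of antimicrobial genes (6 of 6 throughout) stayed near the reported values. With 4 arrays an SD is itself imprecise, and dim probe sets near the floor bound the spread that can be seen.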

Other observations

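Proteasome genes, the subunits of the main protein-degrading complex, split in the unpulsed head into a bright and a dim set. Of 40 genes found by their symbols, 14 had a mean under 3, a smaller share than the 50.2% of all probe sets. The rest ran up to Prosbeta4 at 10.39 ± 0.17. The dim set included Prosalpha6T (2.36), Rpt3R (2.48) and Prosbeta5R1 (2.31), related copies of subunits that are known from testis. The same split stood in the respiratory chain and ATP synthase genes, where 17 of 69 were under 3, also a smaller share than 50.2%. Among them was COX4L (2.35) beside COX4 (12.92 ± 0.02), and ND-MLRQ led the family at 14.16 ± 0.06. Cuticle protein genes were mostly dim, with 53 of 69 under 3, a larger share than 50.2%, while Cpr65Au reached 14.16 ± 0.05.

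Of the receptors of smell, Orco, the co-receptor of the odorant receptors, was at 2.38 ± 0.01 and Ir25a and Ir8a at 2.15 ± 0.01 and 2.78 ± 0.01, although whole heads carry the antennae. Of the heat shock genes, Hsp26 was at 6.26, 5.83, 6.34 and 6.48, Hsp27 at 5.39 ± 0.16 and Hsp68 at 5.61 ± 0.22, while the constitutive chaperone Hsc70-4 stood at 13.89 ± 0.08.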
